A study of Mus musculus with 16 samples.

Results

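Inguinal white adipose tissue of SOD1G93A-Lepob/+ double mutant mice was compared with that of SOD1G93A mice, by genotype label, using 8 of the 16 RNA-seq libraries of the series (4 per genotype). SOD1G93A mice carry a mutant human SOD1 transgene and are a model of amyotrophic lateral sclerosis. The double mutants carry the same transgene together with 1 copy of the ob allele of Lep, so the comparison asks what the ob allele adds in animals that all carry SOD1G93A. All animals were labelled female, C57BL/6 and 90 days old, and the double mutants came from crosses of Lepob/+ females with SOD1G93A males. The remaining 8 libraries, 4 WT and 4 Lepob/+, entered the model and serve below as further reference levels. The labels do not tie libraries to individual animals, so the p-values measure the spread between these libraries.

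White adipose tissue stores triglyceride in adipocytes that secrete leptin and adiponectin. The adipocytes sit in a network of capillaries and of collagens laid down largely by fibroblast-like progenitor cells, and each large adipocyte is wrapped in a basement membrane. Leptin, the product of Lep, acts on the brain to limit food intake, and the ob allele gives no working hormone. In female mice the inguinal depot also surrounds mammary ducts and holds a lymph node, so that lymphocyte, mammary and fat RNA can enter 1 dissected sample.

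Total counts in the 8 libraries ran from 36795376 to 61886313. SOD1G93A replicates 1, 2 and 4 held lymph node RNA, with 4025, 7181 and 4513 CPM (TMM-scaled counts-per-million) summed over the markers of T cells, B cells and the stroma of the node. The sum in SOD1G93A replicate 3 was 369 CPM, within the 251 to 557 CPM of the double mutants. Between the double mutants and those 3 libraries, genotype and lymph node RNA cannot be told apart, and list results are therefore also given against SOD1G93A replicate 3 alone, the most deeply sequenced of the 8. The library labelled SOD1G93A-Lepob/+ replicate 3 had 1756 counts on Y chromosome genes and 0 on Xist, whereas the other 15 had 0 and at least 11895. It therefore does not match its female label, and several results are also given without it. The targeted genes did not check the labels: mouse Sod1 does not report the human transgene, and Lep RNA is counted whether or not it encodes a working hormone. Sod1 was at 415, 390.4, 315 and 449 CPM in double mutant replicates 1 to 4 and at 373, 299, 446 and 324 CPM in SOD1G93A replicates 1 to 4. Among the reference libraries, skeletal muscle markers summed to 256681 CPM in Lepob/+ replicate 4 and to 6666 CPM in WT replicate 3. In whole tissue, fewer cells of a type and less RNA per cell cannot be told apart.

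The sequence upstream of 4 genes that the results below turn on is shown here: Slc5a7, which headed the genes higher in the double mutants, Fbxo34 and Ttll12, which headed those lower, and Col3a1, the most abundant of the fibrillar collagens. Each is the 250 bases before the RefSeq start site on GRCm38.p6, read 5′ to 3′ on the gene's strand, and 81 of the 113 named genes had an entry in this table. Capitals mark matches on either strand to 4 motifs that do not overlap one another. Of all 32851 windows of the same length, TATAAA was present in 12.4%, CCAAT in 33.8%, GGGCGG in 32.7% and TTCNNNGAA in 7.02%. A match is only a match of letters.
Slc5a7, chr17:54299035-54299284, minus strand: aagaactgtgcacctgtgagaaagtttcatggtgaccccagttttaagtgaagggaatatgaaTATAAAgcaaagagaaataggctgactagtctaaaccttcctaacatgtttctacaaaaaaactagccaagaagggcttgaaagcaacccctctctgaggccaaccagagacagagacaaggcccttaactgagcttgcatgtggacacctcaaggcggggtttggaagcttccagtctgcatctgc
Fbxo34, chr14:47472311-47472560, plus strand: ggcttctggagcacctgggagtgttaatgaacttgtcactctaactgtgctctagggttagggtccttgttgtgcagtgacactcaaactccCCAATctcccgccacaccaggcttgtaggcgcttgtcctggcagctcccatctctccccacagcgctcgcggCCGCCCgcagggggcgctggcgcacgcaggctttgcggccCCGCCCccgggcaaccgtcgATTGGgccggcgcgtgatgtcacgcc
Ttll12, chr15:83595158-83595407, minus strand: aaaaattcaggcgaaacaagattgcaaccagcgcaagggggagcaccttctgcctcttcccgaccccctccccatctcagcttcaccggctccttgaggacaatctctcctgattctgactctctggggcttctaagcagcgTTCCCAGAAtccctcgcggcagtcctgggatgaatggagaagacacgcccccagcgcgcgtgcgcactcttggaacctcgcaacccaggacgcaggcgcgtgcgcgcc
Col3a1, chr1:45311288-45311537, plus strand: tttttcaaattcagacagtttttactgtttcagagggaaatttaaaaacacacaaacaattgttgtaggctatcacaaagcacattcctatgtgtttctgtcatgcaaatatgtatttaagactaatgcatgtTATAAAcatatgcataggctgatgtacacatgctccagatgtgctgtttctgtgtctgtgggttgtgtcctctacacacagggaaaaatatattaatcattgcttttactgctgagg
The windows differ in base composition, with a GC content of 64.8% upstream of Fbxo34, 60.8% for Ttll12, 45.6% for Slc5a7 and 35.2% for Col3a1, beside a median of 52.4% over all windows. The Slc5a7 match to TATAAA begins 187 bases and that of Col3a1 117 bases before the start site. The Fbxo34 window lies inside the annotated gene, which spans 47450421 to 47531962 on chromosome 14, so it precedes an internal start site.

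No gene passed an adjusted p of 0.05 (0 of 19736 tested, 0%) in edgeR's quasi-likelihood test with Benjamini-Hochberg adjustment over all 16 libraries, and the smallest adjusted p was 0.261. At an unadjusted p under 0.05, 827 genes (4.19%) were higher and 2434 (12.3%) lower in the double mutants. In the TMM scaling taken from genes that do not follow lymph node content, which moved the median of all genes by -0.12 on the log2 scale, this split became 441 higher and 3278 lower. In DESeq2 fitted to the 8 libraries alone, 512 genes (2.59%) were called higher and 1423 (7.21%) lower, whereas the fit to all 16 gave 595 calls in both directions together. A count that uses no model gave 707 genes (3.58%) at which every double mutant library stood above every SOD1G93A library, and 710 genes (3.60%) at which every one stood below. Without the library labelled SOD1G93A-Lepob/+ replicate 3 these were 1291 and 1109, and without SOD1G93A replicate 3 they were 3552 and 4475. Leaving out SOD1G93A replicate 1, 2 or 4 instead gave 816 to 925 higher and 789 to 867 lower. Without double mutant replicate 1, 2 or 4 the counts were 937 to 1252 higher and 892 to 1209 lower. A separation is easier to meet with fewer libraries, so a rise alone does not set a library apart. SOD1G93A replicate 3 on its own lay within the range of the double mutants at 12221 genes (61.9%), below it at 3615 (18.3%) and above it at 3900 (19.8%).

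The 20 genes higher in every double mutant library with the smallest p were spread over neuronal, epithelial, vascular and adipocyte functions, at fitted differences of 0.53 to 2.34 on the log2 scale and unadjusted p of 0.000209 to 0.00261. All 20 were also past an adjusted p of 0.05 in DESeq2 on the 8 libraries, beside 386 of all 707 such genes. When lymph node content was a covariate all 20 kept their direction, beside 619 of the 707. This set was chosen for its separation and small p, so these counts describe the rule. Slc5a7 (chromosome 17, 54273590 to 54299034), the choline transporter that feeds acetylcholine synthesis, was at 13.5, 9.37, 14.2 and 11.6 CPM in double mutant replicates 1 to 4. In SOD1G93A replicates 1 to 4 it was at 3.62, 2.01, 4.87 and 6.07 CPM. Every double mutant library also exceeded all WT and Lepob/+ libraries, whose highest value was 7.65 CPM, and the fitted difference was 1.55 ± 0.31 (log2, SE).

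Angptl4, a secreted inhibitor of lipoprotein lipase made by adipocytes, was at 490.1, 481, 516 and 400.2 CPM in the double mutants and at 297, 187, 290.3 and 250.1 CPM in SOD1G93A. The fitted difference was 0.88 ± 0.24 against all 4 SOD1G93A libraries and 0.70 against replicate 3 alone, with an edgeR unadjusted p of 0.00253. Lepob/+ replicates 1 and 2, at 446 and 425 CPM, lay among the double mutants. Rhoc, a small GTPase of the actin cytoskeleton, was at 78.2, 91.9, 97.6 and 91.5 CPM against 51.3, 40.9, 65.5 and 53.2 CPM. This gene too was above all 12 other libraries in every double mutant, but narrowly, with Lepob/+ replicate 2 at 77.4 CPM. The difference of 0.77 ± 0.19 was 0.45 against SOD1G93A replicate 3 alone and 0.41 with the lymph node covariate. Tppp3, a microtubule-associated protein also used as a marker of stromal progenitors, was at 61.0, 61.7, 72.5 and 63.2 CPM against 39.1, 32.1, 36.5 and 33.9 CPM, a difference of 0.87 ± 0.20. WT libraries were at 48.7 to 70.5 CPM, above all SOD1G93A libraries, and Lepob/+ libraries at 60.1, 71.1, 33.2 and 68.9 CPM, so that Lepob/+ replicate 3 lay among SOD1G93A.

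Among the remaining genes of the 20, the receptor phosphatase Ptprg was at 50.7 to 64.2 CPM against 22.6 to 34.96 CPM. The semaphorin Sema3f, a guidance cue for axons and vessels, was at 36.6 to 55.4 CPM against 24.6 to 29.4 CPM. Nlgn2, a synaptic adhesion protein, was at 53.4 to 65.9 CPM against 31.9 to 43.9 CPM. The G protein subunit Gnb5 was at 37.9 to 48.9 CPM against 23.9 to 33.6 CPM. These 4 genes had no overlap between genotypes, and SOD1G93A replicate 3 was the highest SOD1G93A library for Nlgn2 and Gnb5. Dnajb13, a component of motile cilia, was at 2.89 to 6.62 CPM against 1.17 to 1.78 CPM, although it overlaps Ucp2 on the opposite strand and the strand setting of the counting is not given. Mpzl1, Tmem107, Gfod2, Ptms, Igsf5 and Grin1os were also in the set, with differences of 0.53 to 1.74 on the log2 scale. Grin1os lies antisense to Grin1, so its reads and those of Grin1 may not be separated.

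**Figure D1:**
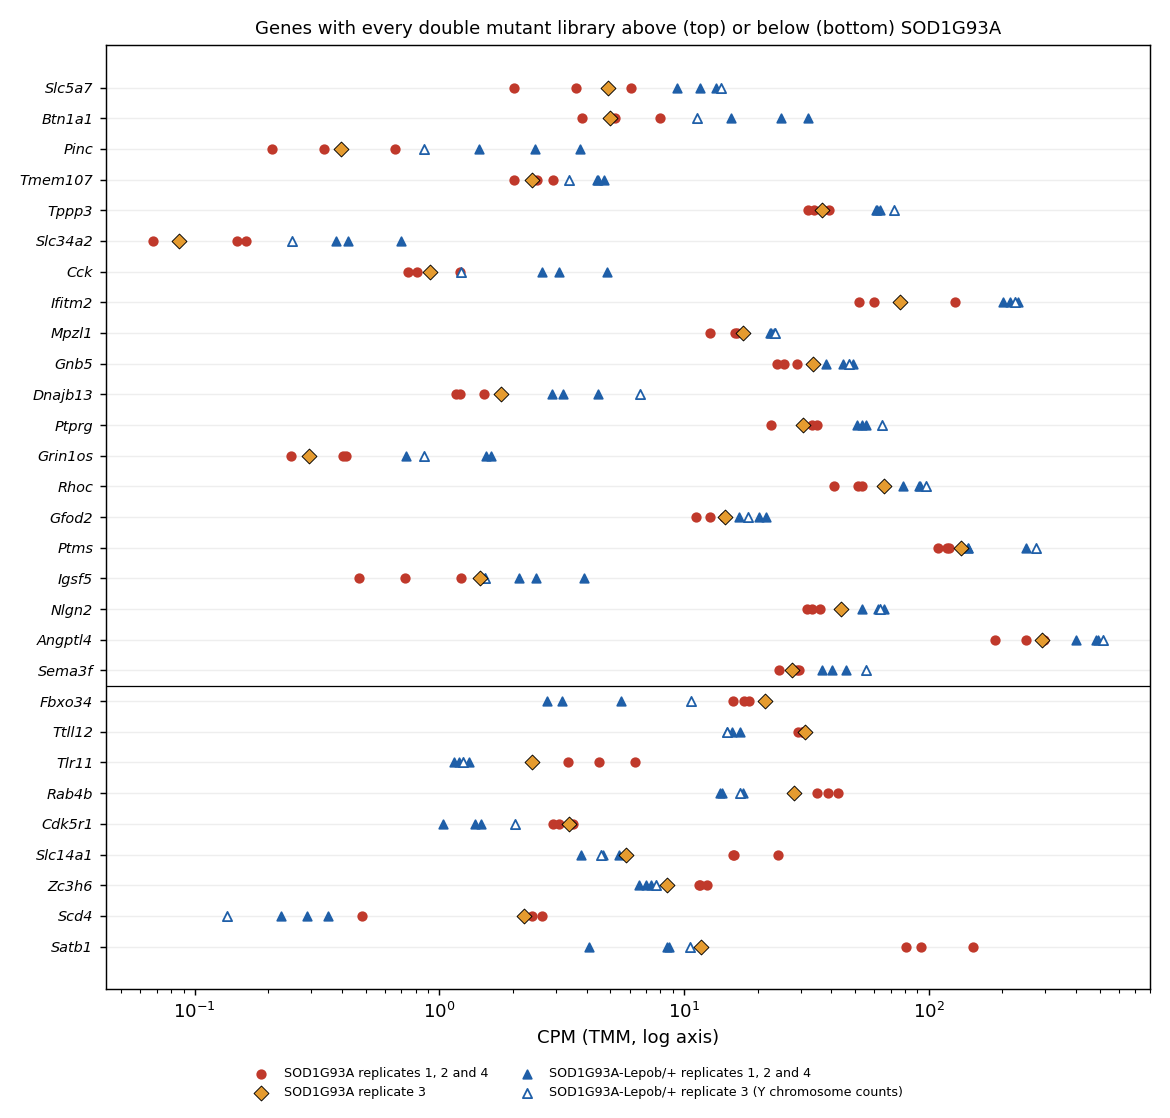
CPM (log axis) of the 20 genes higher and 9 of the 10 genes lower in every double mutant library, 1 point per library; Ighv1-58, listed at 0 in the double mutants, is left out. SOD1G93A replicate 3 (diamond) is the SOD1G93A library nearest to the double mutants for Slc14a1, at 5.82 CPM, and Satb1, at 11.7 CPM, but lies with the other SOD1G93A libraries for Fbxo34 and Ttll12.

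Some of the 20 genes are known from epithelia, among them Btn1a1 and Pinc from the mammary gland. Btn1a1, butyrophilin of the milk fat globule, was at 24.9, 15.6, 11.3 and 32.1 CPM in the double mutants and at 5.22, 3.82, 4.99 and 7.96 CPM in SOD1G93A. The fitted difference was 1.93 ± 0.41, and the lowest double mutant was the library labelled replicate 3. That library lay below Lepob/+ replicate 4 at 12.7 CPM and WT replicates 1 and 2, both at 11.5 CPM. Pinc, a noncoding RNA of the mammary gland, was at 0.862 to 3.76 CPM against 0.208 to 0.661 CPM. Slc34a2, an epithelial phosphate transporter, was at 0.249 to 0.700 CPM against 0.0678 to 0.162 CPM. The gut peptide Cck was at 1.22 to 4.83 CPM against 0.745 to 1.22 CPM, so that the genotypes nearly touched, with the library labelled SOD1G93A-Lepob/+ replicate 3 again the lowest of its genotype.

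Of the 15 mammary epithelium markers, 13 were higher in the double mutants at a median of 0.70 on the log2 scale, and 7 were at an unadjusted p under 0.05, beside 4.19% of all genes. None was separated in every library. Their summed level was 1468, 1373, 647 and 2231 CPM in double mutant replicates 1 to 4 and 923, 519.8, 699.9 and 1187 CPM in SOD1G93A replicates 1 to 4. WT libraries were at 788 to 1511 CPM and Lepob/+ libraries at 884 to 1287 CPM. The luminal keratin Krt18 was at 322, 340.2, 136 and 469.8 CPM against 206, 105, 174 and 224 CPM. As in the sum, double mutant replicate 4 was the highest of its genotype and replicate 3 the lowest. The basal keratins Krt5 and Krt14 were not higher in the double mutants, at -0.82 ± 0.58 and -0.08 ± 0.44. Against SOD1G93A replicate 3 alone the list median was 0.92, without the library labelled SOD1G93A-Lepob/+ replicate 3 it was 0.94, and with lymph node content as a covariate it was 1.06. The amount of duct in each sample was not measured, and its part in the values of Btn1a1, Pinc, Slc34a2 and Cck was not tested.

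The 5 red blood cell genes were also higher together, at a median of 1.08. All 5 were at an unadjusted p under 0.05, beside 4.19% of all genes. Hba-a1, an alpha globin, was at 361, 266, 193 and 347 CPM in the double mutants and at 202, 85.5, 162 and 90.2 CPM in SOD1G93A. The globin genes are near-identical copies, so counts between Hba-a1 and Hba-a2 and between Hbb-bs and Hbb-bt may be split by the counting. SOD1G93A replicate 3 was below every double mutant library at all 5, beside 18.3% of all genes, and the overlap came from SOD1G93A replicate 1. WT libraries, at 198 to 343 CPM of Hba-a1, were at the level of the double mutants. The 17 macrophage markers were all higher, at a median of 0.51, with 4 separated in every library, beside 3.58% of all genes, among them C1qa, C1qb and C1qc of the complement C1q complex. Against SOD1G93A replicate 3 alone the macrophage median was 0.07.

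Among genes lower in every double mutant library and outside the lymphoid lists, Fbxo34 and Ttll12 did not follow lymph node RNA. Fbxo34, which encodes an F-box protein, was at 3.17, 5.55, 10.7 and 2.75 CPM in the double mutants. In SOD1G93A it was at 18.4, 17.7, 21.4 and 15.8 CPM, and the 8 WT and Lepob/+ libraries ran from 15.8 to 20.5 CPM. The 4 double mutants therefore stood below all 12 other libraries, at a fitted difference of -1.72 ± 0.33 and an edgeR unadjusted p of 0.000111, the smallest of the named genes. With the highest of the 4, the library labelled SOD1G93A-Lepob/+ replicate 3, left out, the difference was -2.25 at an edgeR adjusted p of 0.00172. Ptp4a1 and Wdr37, named because they were the only other genes called then, differed by -2.65 and -1.99.

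Ttll12 (chromosome 15, 83575090 to 83595157), a tubulin tyrosine ligase-like protein, was at 16.9, 15.7, 14.99 and 14.9 CPM in the double mutants and at 30.8, 29.2, 31.2 and 30.4 CPM in SOD1G93A. The spread within each genotype was under 1 CPM (SD 0.911 and 0.883, n = 4 each), and the fitted difference was -0.96 ± 0.21. WT libraries were at 28.2 to 32.6 CPM. Lepob/+ libraries split, with replicates 1 and 2 at 15.6 and 14.2 CPM and replicates 3 and 4 at 29.0 and 31.7 CPM, so that the low level was not shared by every carrier of the ob allele. In the edgeR fit of the 8 libraries alone, Ttll12 and the gene model Gm21983 were the only genes called (both at an adjusted p of 0.0447).

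The other genes of this set were low or followed lymph node RNA in part. Scd4, a stearoyl-CoA desaturase, was at 0.288, 0.350, 0.136 and 0.225 CPM against 2.62, 2.39, 2.23 and 0.485 CPM, a difference of -2.84 ± 0.73. Its level in WT was 0.536 to 1.67 CPM. In Lepob/+ replicates 1 to 4 it was 1.91, 1.32, 2.55 and 0.0999 CPM. Cdk5r1, the activator of the neuronal kinase CDK5, was at 1.04 to 2.04 CPM against 2.92 to 3.52 CPM. Tlr11, a Toll-like receptor, was at 1.15 to 1.32 CPM against 2.40 to 6.28 CPM. Satb1, a chromatin organiser of T cells, was at 8.48, 4.07, 10.5 and 8.71 CPM against 93.2, 152, 11.7 and 80.5 CPM, and the SOD1G93A libraries rich in lymph node RNA were the high ones. Slc14a1, a urea transporter, and Zc3h6 showed the same order, with SOD1G93A replicate 3 nearest to the double mutants at 5.82 and 8.55 CPM. The immunoglobulin segment Ighv1-58 was at 0 in all 4 double mutants and at 0.234, 0.723, 1.14 and 0.277 CPM in SOD1G93A.

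In 2 cases the gene overlaps a second gene model on the same strand whose counts differed in the opposite direction. Rab4b, a GTPase of endosome recycling (chromosome 7, 27168424 to 27178896), was at 14.1, 14.3, 17.0 and 17.4 CPM in the double mutants and at 38.8, 42.6, 28.1 and 34.9 CPM in SOD1G93A. Gm21983, which covers nearly all of Rab4b and extends beyond it, was at 14.9, 15.2, 7.94 and 9.97 CPM in the double mutants and at 0 in all 4 SOD1G93A libraries, as in WT replicate 2. Summed, the pair was at 27.7 ± 2.07 CPM against 36.1 ± 6.19 CPM (SD, n = 4) and the genotypes overlapped, with SOD1G93A replicate 3 at 28.1 CPM. Ifitm2, an interferon-induced membrane protein, was at 215, 232, 226 and 201 CPM against 128, 52.0, 76.7 and 59.7 CPM. Gm45717, which overlaps it, was at 0 to 0.250 CPM in the double mutants and at 0.341, 77.4, 115 and 94.0 CPM in SOD1G93A, and it was high in Lepob/+ replicates 2 and 4 as well. Their sum remained separated but at a smaller ratio, at 219 ± 13.5 CPM against 151 ± 29.4 CPM. Uniquely assigned counts can be split between overlapping models, so the single-gene values of both pairs are uncertain. Gm21983, Gm45717 and the sums were chosen after the values were seen.

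**Figure D2:**
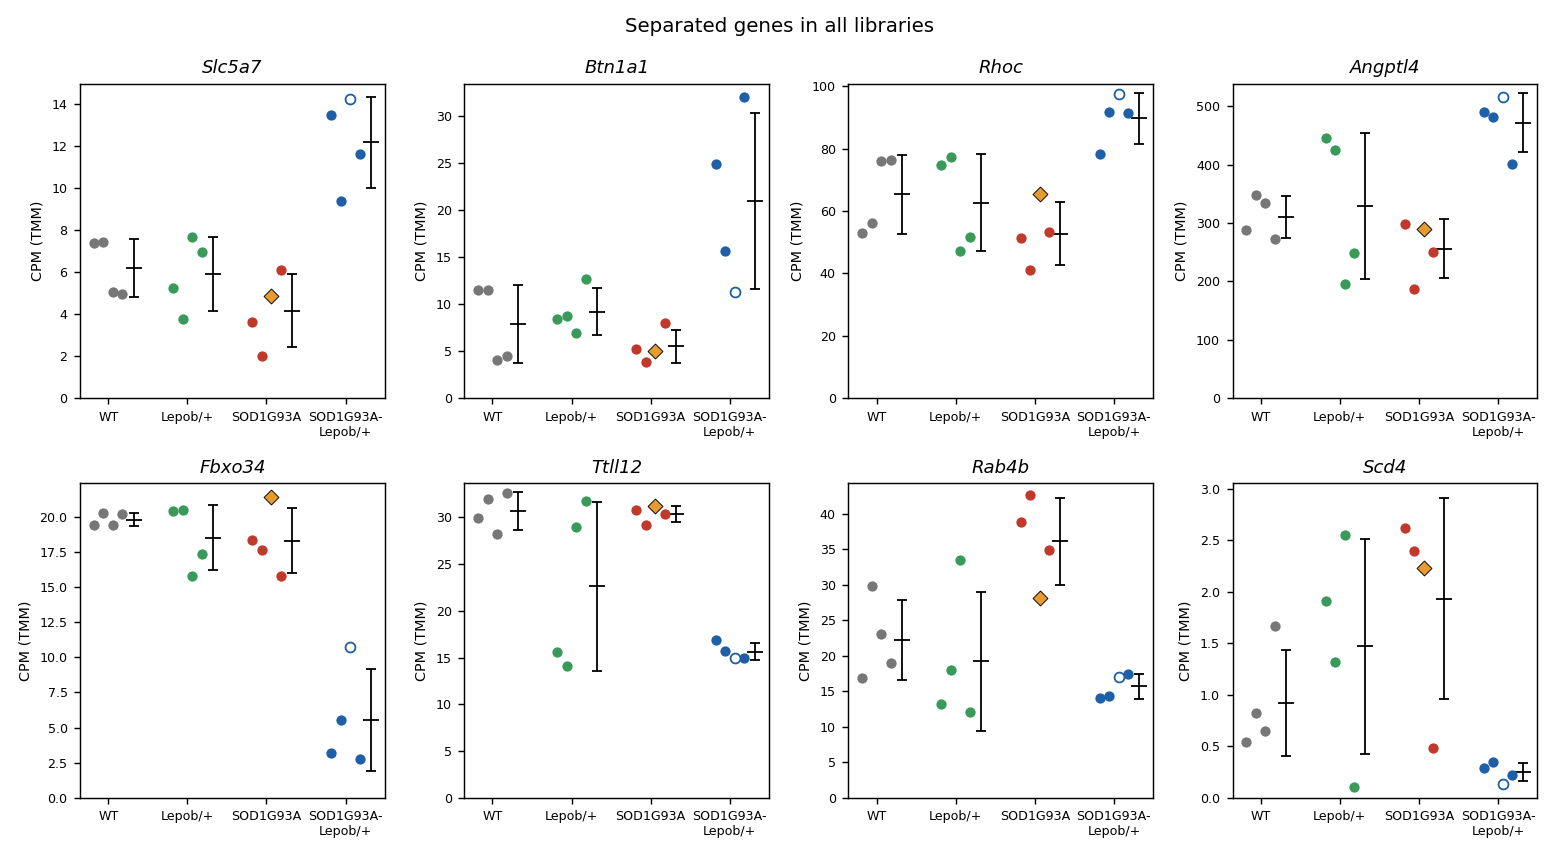
CPM of 8 separated genes in all 16 libraries, 1 point per library, with the mean and SD of each genotype as a black bar; the diamond is SOD1G93A replicate 3 and the open point the library labelled SOD1G93A-Lepob/+ replicate 3. Double mutants lie outside every other genotype for Slc5a7, Fbxo34 and, narrowly, Rhoc. For Ttll12, Lepob/+ replicates 2 and 1 at 14.2 and 15.6 CPM overlap them.

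The same check was made for all genes. Of the 707 genes higher in every double mutant library, 21 (0.106% of genes tested) were also above all WT and Lepob/+ libraries, and of the 710 lower, 12 (0.0608%) were also below them. Besides Slc5a7 and Rhoc, these 21 included the matrix protease Adamts15 and the fibril-associated collagen Col12a1, both by a narrow margin. The lowest double mutant for Adamts15 was at 51.0 CPM beside 49.8 CPM in WT replicate 4. For Col12a1 it was at 16.2 CPM beside 15.9 CPM in Lepob/+ replicate 2. Prmt2, an arginine methyltransferase, and the milk protein Lalba were among the 21 as well and are named after their values were seen. Prmt2 was at 21.9, 20.8, 21.3 and 19.3 CPM against 14.6, 15.4, 18.01 and 12.8 CPM in SOD1G93A. Lalba was at 0.886, 0.874, 0.499 and 2.56 CPM against 0.128 to 0.254 CPM, and it belongs with the mammary genes above. The 12 lower ones included Fbxo34 and Satb1.

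Gene lists for adipocytes, stroma, vessels and matrix were summarised by how many members were higher, by the median difference and by the position of SOD1G93A replicate 3. Over all 19736 genes the median difference was 0.00, with 9882 genes higher. No member of any list passed the adjusted threshold in edgeR. In the plot of list means, SOD1G93A replicates 1, 2 and 4 all lay below every double mutant library for 4 of the 11 adipocyte lists, 4 of the 6 endothelial and mural lists and 6 of the 7 matrix lists. The 4 adipocyte lists were mature adipocyte, adipokines, fatty acid uptake and adipogenic transcription factors.

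**Figure D3:**
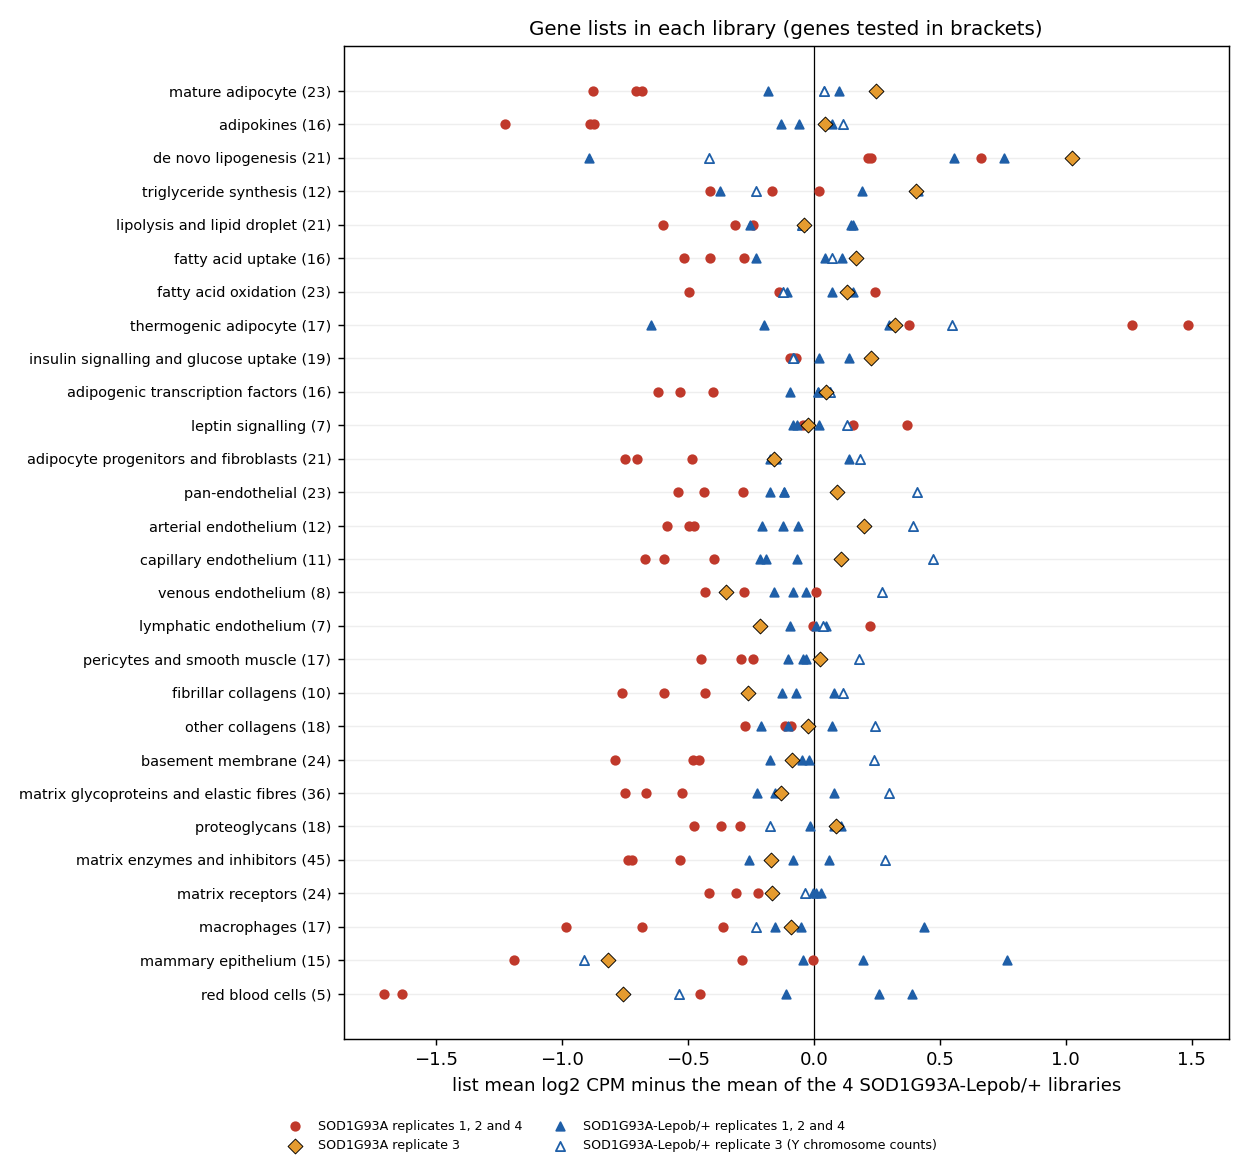
Mean log2 CPM of each gene list in the 8 libraries, relative to the mean of the 4 double mutants (zero line); 1 point per library. For mature adipocyte genes SOD1G93A replicates 1, 2 and 4 sit at 9.11 to 9.30 before this centring, the double mutants at 9.81 to 10.09 and SOD1G93A replicate 3 at 10.23.

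Mature adipocyte genes were higher in the double mutants at 22 of 23 members, with a median of 0.43 on the log2 scale and 3 members at an unadjusted p under 0.05, beside 4.19% of all genes. This order rested on 3 of the 4 SOD1G93A libraries: replicate 3 was above the whole double mutant range at 13 of the 23, within it at 8 and below it at 2, and the median against it alone was -0.19. Adipoq, which encodes adiponectin, was at 2373, 2097, 3089 and 2267 CPM in the double mutants. In SOD1G93A it was at 1428, 1262, 3262 and 1331 CPM, so replicate 3 was the highest of all 8 and the genotypes overlapped (difference 0.43 ± 0.35, edgeR adjusted p = 0.54). The lipid droplet coat protein Plin1 had the same order, at 1212 to 1629 CPM against 1010.5, 856, 1833 and 933 CPM. Cidec, which drives droplet fusion, was at 1896 to 2690.5 CPM against 1222, 921, 2237 and 1143 CPM. Plin4, a droplet coat protein, was 1 of the 2 exceptions, with the receptor Acvr1c, at 3407, 2741, 3625 and 2752 CPM against 1702, 1395, 2452 and 1985 CPM. It exceeded SOD1G93A replicate 3 in every double mutant library, by 0.35 at the fitted mean.

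Lep itself was at 691, 549, 1843 and 578 CPM in the double mutants and at 243, 307, 993 and 360.3 CPM in SOD1G93A. The difference of 0.94 ± 0.59 did not pass the adjusted threshold (edgeR adjusted p = 0.426). It was -0.12 against SOD1G93A replicate 3 alone and -0.22 with the covariate. In each genotype 1 library stood far above the other 3, and in the double mutants this was the library labelled replicate 3. The 16 adipokines as a list were higher at 14 members and a median of 0.72, which became -0.01 against SOD1G93A replicate 3. Metrnl, a secreted meteorin-like factor, was at 35.4 to 49.7 CPM against 18.4 to 34.1 CPM, narrowly with no overlap. SOD1G93A replicate 3 was the highest of its genotype, and the Metrnl difference of 0.79 was 0.25 against it alone and 0.23 with the covariate. Sfrp5, a secreted Wnt antagonist, was at 151.6 CPM in the library labelled SOD1G93A-Lepob/+ replicate 3 and at 21.9 to 27.5 CPM in the other double mutants, against 7.02 to 36.0 CPM.

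Lipogenic genes pointed the other way. Of 21 genes of de novo lipogenesis, 18 were lower in the double mutants at a median of -0.39, and none was at an unadjusted p under 0.05. SOD1G93A replicate 3 was above every double mutant library at 18 of the 21, beside 19.8% of all genes, and the median against it was -0.74. Fasn, fatty acid synthase, was at 11681, 1288, 3484 and 12416 CPM in the double mutants and at 12105, 8287, 16428 and 8089.8 CPM in SOD1G93A. The double mutants thus formed a high and a low pair, and the difference of -0.64 ± 0.74 was smaller than its error. Acaca, acetyl-CoA carboxylase, split the same libraries, at 1103, 241, 367 and 1434 CPM against 1010.2 to 1915 CPM. Such low libraries were also present in the other genotypes, since Fasn was at 1744 to 2864 CPM in 3 of 4 Lepob/+ libraries and at 3280.1 CPM in WT replicate 2.

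Genes of lipolysis and the lipid droplet were higher at 17 of 21 members (median 0.37), 4 of them at an unadjusted p under 0.05, beside 4.19% of all genes. The median was 0.02 against SOD1G93A replicate 3 and 0.00 with the covariate. Abhd5, the activator of adipose triglyceride lipase, was at 110.1 to 145 CPM against 63.9 to 109 CPM, narrowly without overlap. SOD1G93A replicate 3 was the highest of its genotype, and the Abhd5 difference of 0.54 was 0.20 against it alone and 0.43 with the covariate. Fatty acid uptake had a median of 0.27 over 16 genes, fatty acid oxidation 0.13 over 23 and triglyceride synthesis 0.02 over 12. Against SOD1G93A replicate 3 these medians were -0.13, -0.11 and -0.41. The 16 adipogenic transcription factors had a median of 0.37, and -0.08 against replicate 3. Rxra, the partner of PPARG, was the clearest among them, at 229.9, 242, 254 and 178 CPM against 148, 131, 96.8 and 169 CPM, with SOD1G93A replicate 3 the lowest library (difference 0.73 ± 0.24 against all 4, 1.22 against replicate 3).

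Insulin signalling genes were even, 9 of 19 higher at a median of -0.01 (-0.17 against replicate 3). There, 1 member was separated higher and 1 lower, beside 3.58% and 3.60% of all genes. The kinase Akt1 was at 177 to 200.3 CPM against 150.5 to 169 CPM. Tbc1d4, which holds back glucose transporter traffic, was at 42.3 to 49.0 CPM against 52.1 to 71.5 CPM. SOD1G93A replicate 3 was the lowest of its genotype for Tbc1d4. The difference of -0.50 was -0.20 against that library alone and -0.16 with the lymph node covariate. Of 7 leptin signalling genes, the adaptor Sh2b1 was separated, at 57.0, 55.2, 54.3 and 55.2 CPM against 75.3, 77.4, 72.2 and 92.1 CPM. The list median of -0.24 became 0.21 against replicate 3. Thermogenic genes were lower at 15 of the 17 tested of 18 (median -0.68), and -0.22 against replicate 3. Ucp1, the uncoupling protein of brown and beige fat, was at 0.819, 0.175, 27.9 and 3.65 CPM against 75.6, 7.23, 3.16 and 24.1 CPM, and it reached 313 CPM in 1 Lepob/+ library. The spread within genotypes exceeded the difference of -1.75 ± 1.73.

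Progenitor and fibroblast genes were higher at 20 of 21 members, with a median of 0.55 that was 0.13 against SOD1G93A replicate 3 and -0.18 with the covariate. Cxcl14, a chemokine of fibroblasts, was at 45.2 to 58.5 CPM against 23.9 to 43.6 CPM, and SOD1G93A replicate 3 was near the bottom at 24.8 CPM. Ly6a, the progenitor marker Sca-1, was at 205, 378, 326 and 199.7 CPM against 106, 148, 167 and 187 CPM. Pdgfra, the receptor that marks the progenitors, was at 128 to 167 CPM against 84.5 to 138 CPM and overlapped.

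Endothelial genes gave small differences. Of 23 pan-endothelial genes 22 were higher at a median of 0.34, and SOD1G93A replicate 3 was within the double mutant range at 18. The direction turned against replicate 3 alone, at a median of -0.09, and with the covariate, at -0.15. The median against all 4 was 0.12 without the library labelled SOD1G93A-Lepob/+ replicate 3, which was the highest of the 8 for this list at 6.63 against 6.04 to 6.10 in the other double mutants (mean log2 CPM). Pecam1, the junction protein CD31, was at 181, 177, 306 and 183 CPM against 178, 225, 199.9 and 218 CPM. Its difference of 0.04 ± 0.18 was -0.19 without that library and -0.09 with scaling from genes that do not follow lymph node content. Cdh5, VE-cadherin, was at 191 to 402 CPM against 155 to 271 CPM. Eng, the TGF-beta coreceptor endoglin, and Vwf, von Willebrand factor, were the 2 of 23 members separated higher, beside 3.58% of all genes. They were at 166 to 197 against 112 to 147 CPM and at 82.8 to 92.0 against 39.3 to 76.7 CPM. Their differences of 0.42 and 0.52 were 0.36 and 0.19 against SOD1G93A replicate 3 alone, and 0.22 and 0.07 with the covariate.

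In the venous list 1 of 8 members was separated higher and 1 lower, beside 3.58% and 3.60% of all genes. Selp, the adhesion molecule P-selectin, was at 10.5, 12.97, 12.8 and 11.3 CPM against 5.29, 3.91, 7.27 and 8.36 CPM, at 0.93 ± 0.34 (0.70 against replicate 3). Vcam1, which is also made by lymph node stroma, was at 18.9 to 22.4 CPM against 35.2, 61.6, 25.3 and 42.6 CPM, and the difference of -0.99 was -0.11 with the covariate. Arterial, capillary, venous and lymphatic lists had medians of 0.37, 0.43, 0.40 and 0.25, and against SOD1G93A replicate 3 these were -0.12, 0.12, 0.39 and 0.24. Without the library labelled SOD1G93A-Lepob/+ replicate 3 they were 0.31, 0.19, 0.29 and 0.10. The 17 pericyte and smooth muscle genes tested of 18 had a median of 0.32, and 0.00 against replicate 3. Higd1b, a pericyte marker, was at 4.54 to 5.62 CPM against 2.28 to 4.16 CPM.

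Matrix genes were the largest group in which most members stood higher: 154 of the 175 tested of 180, with a median of 0.48. Of these, 22 were at an unadjusted p under 0.05 in edgeR in the higher direction, beside 4.19% of all genes, 27 were called higher by DESeq2 on the 8 libraries, beside 2.59%, and 17 were separated in every library, beside 3.58%. SOD1G93A replicate 3 was below the double mutants at 38, within their range at 124 and above it at 13, beside 18.3%, 61.9% and 19.8% of all genes. The matrix median against it alone was 0.16, and with the covariate it was -0.01.

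Fibrillar collagens, which form the load-bearing fibres, had the highest median of the matrix lists, at 0.80 over 10 tested genes of 11. Col3a1 was at 6383, 6882, 9032 and 4489.9 CPM in the double mutants and at 3139, 2962, 4683 and 3779.8 CPM in SOD1G93A. Double mutant replicate 4 lay below SOD1G93A replicate 3, so the genotypes overlapped, and the difference was 0.88 ± 0.40 (edgeR adjusted p = 0.295). Col1a1 was at 2141, 2255, 3245 and 1643 CPM against 1070.2, 1069, 1847 and 1329 CPM, and the same single library crossed. Col5a1 and Col5a3, type V chains that regulate fibril width, had no overlap, and Col5a3 was at 1126, 761, 1404 and 823 CPM against 578, 462, 705 and 561 CPM. DESeq2 on the 8 libraries called Col1a1, Col3a1, Col5a1, Col5a2 and Col5a3 higher, 5 of the 10, beside 2.59% of all genes. The list median was 0.35 against SOD1G93A replicate 3 and 0.61 without the library labelled SOD1G93A-Lepob/+ replicate 3, the highest library for all 5. With the lymph node covariate the median was 0.18.

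The 18 other collagens tested of 20 had a median of 0.27, and 0.25 against replicate 3. Col16a1 and Col12a1, which bind to the surface of fibrils, were separated, at 85.7 to 122 against 60.6 to 73.1 CPM and at 16.2 to 31.7 against 10.2 to 14.1 CPM. Col6a3, the source of endotrophin in fat, was at 795, 739.7, 1338 and 549 CPM against 442, 392.3, 588 and 549 CPM. Basement membrane genes were higher at 22 of 24 members, at a median of 0.51 that was 0.11 against SOD1G93A replicate 3, which lay within the double mutant range at 21. Col4a1 was at 2189.7, 1776, 3503 and 1496 CPM against 1111, 1044, 1859 and 1367 CPM. Lama5, a laminin chain, was at 175 to 229.7 CPM against 104 to 184 CPM, with SOD1G93A replicate 4 the one library that overlapped.

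Glycoproteins and elastic fibre genes were higher at 33 of 36 (median 0.55, and 0.14 against replicate 3). Eln, elastin, was at 319, 207, 608 and 379 CPM against 142, 154, 134 and 283 CPM, at 1.08 ± 0.43 against all 4 libraries and 1.498 against replicate 3. Thbs1, thrombospondin, was at 74.3, 150.0, 151 and 62.2 CPM against 33.6 to 65.5 CPM, and Lepob/+ replicates 1, 2 and 4 were at 120.1 to 202 CPM. Fn1, fibronectin, was at 1475 to 2233 CPM against 1289 to 1476 CPM. Of the 18 proteoglycans tested of 20, 15 were higher at a median of 0.45 (-0.04 against replicate 3). Dcn, decorin, was at 1327 to 1903 CPM against 764, 872, 1674 and 953 CPM. Fmod, fibromodulin, was lower, at 3.56 to 5.90 CPM against 16.6, 23.3, 4.80 and 16.4 CPM, which again set replicate 3 beside the double mutants.

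Matrix enzymes and their inhibitors were higher at 43 of 45 members, with a median of 0.52 and 6 separated in every library, beside 3.58% of all genes. Adamts15, a protease of proteoglycans, was at 51.0, 52.6, 61.2 and 65.8 CPM against 22.7, 29.4, 45.4 and 36.4 CPM, at 0.79 ± 0.23 (0.34 against replicate 3). Mmp9, a gelatinase, was at 65.2, 71.2, 55.8 and 57.2 CPM against 34.1, 24.1, 45.1 and 30.6 CPM. The other 4 were Mmp19, Adamts12, the collagen crosslinking enzyme Loxl2 and the collagen prolyl hydroxylase P4ha2. The list median was 0.14 against SOD1G93A replicate 3 and -0.03 with the covariate. Matrix receptors had a median of 0.34 over 24 genes (0.18 against replicate 3). Sdc1, the proteoglycan syndecan-1, was at 78.8, 88.8, 65.4 and 74.8 CPM against 50.1, 48.0, 48.3 and 53.8 CPM, and SOD1G93A replicate 3 lay with its own genotype. Ddr1, a collagen receptor kinase of epithelia, was at 67.0 to 82.1 CPM against 46.1, 42.9, 67.0 and 48.4 CPM.

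**Figure D4:**
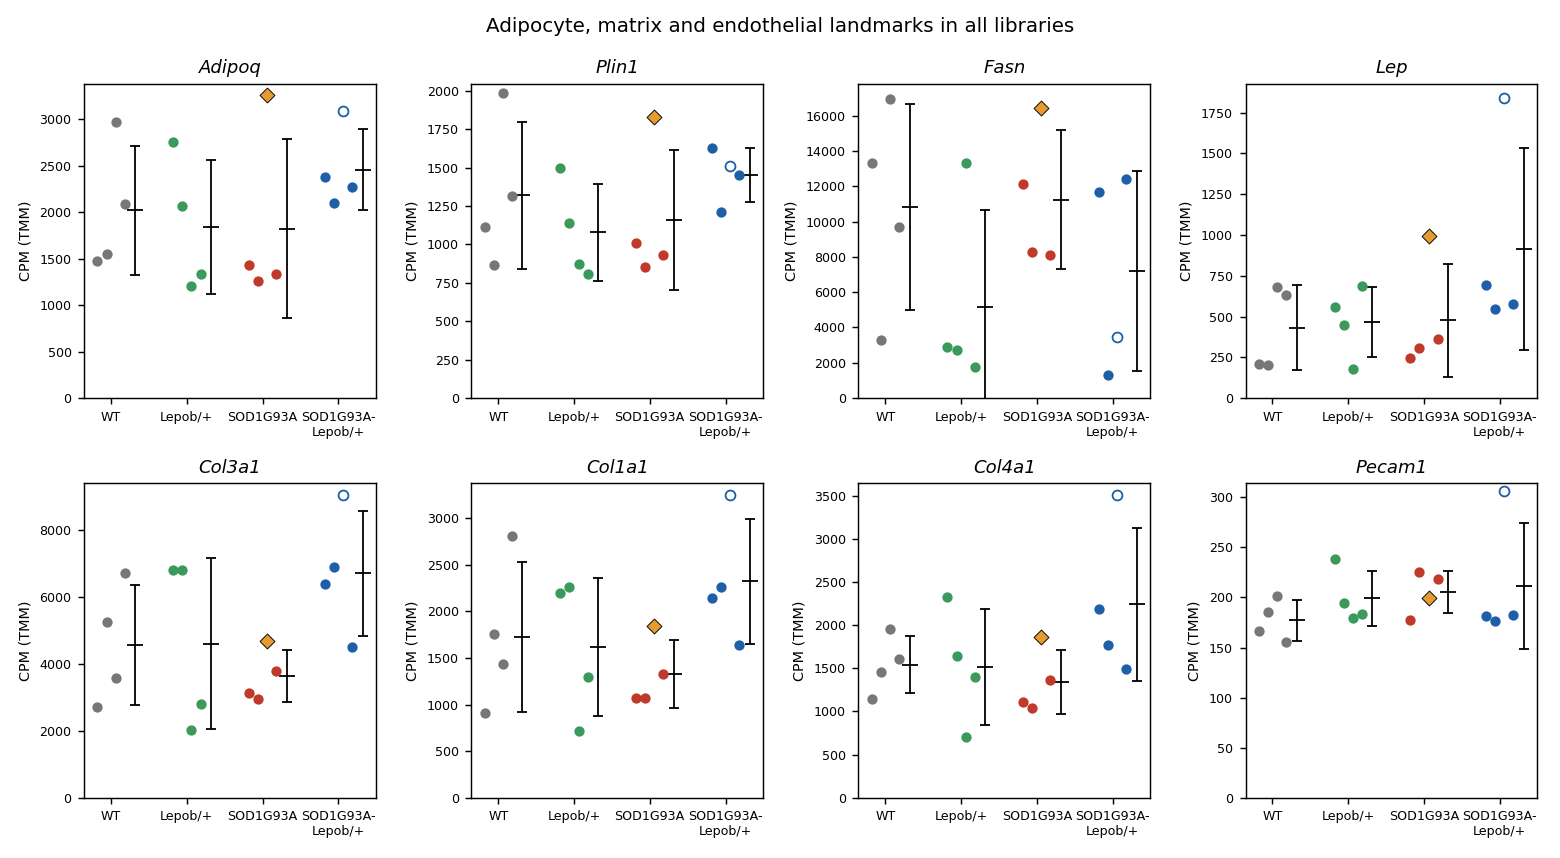
CPM of 8 landmark genes in all 16 libraries, 1 point per library, with the mean and SD of each genotype (the lower end for Fasn in Lepob/+ is cut at 0); the diamond is SOD1G93A replicate 3 and the open point the library labelled SOD1G93A-Lepob/+ replicate 3. Replicate 3 is the highest of its genotype for Adipoq at 3262 CPM and Col3a1 at 4683 CPM, and the open point is the highest double mutant for Col3a1 at 9032 CPM and Pecam1 at 306 CPM.

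Set side by side, the lists differed in how far they kept their median under the other references. Mature adipocyte and adipokine genes lost their positive median against SOD1G93A replicate 3 and with the covariate (-0.19 and 0.00, and -0.01 and 0.01). Fibrillar collagens kept a positive but smaller median under both, as did basement membrane genes (0.11 and 0.10) and venous endothelium genes (0.39 and 0.14). Mammary epithelium and red blood cell genes kept theirs at 0.92 and 1.06 and at 0.79 and 1.13. De novo lipogenesis and thermogenic genes stayed below 0 under both. Within SOD1G93A only replicate 3 was low in the covariate and within the double mutants no library was high, so the adjusted values rest in part on that same library.

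**Figure D5:**
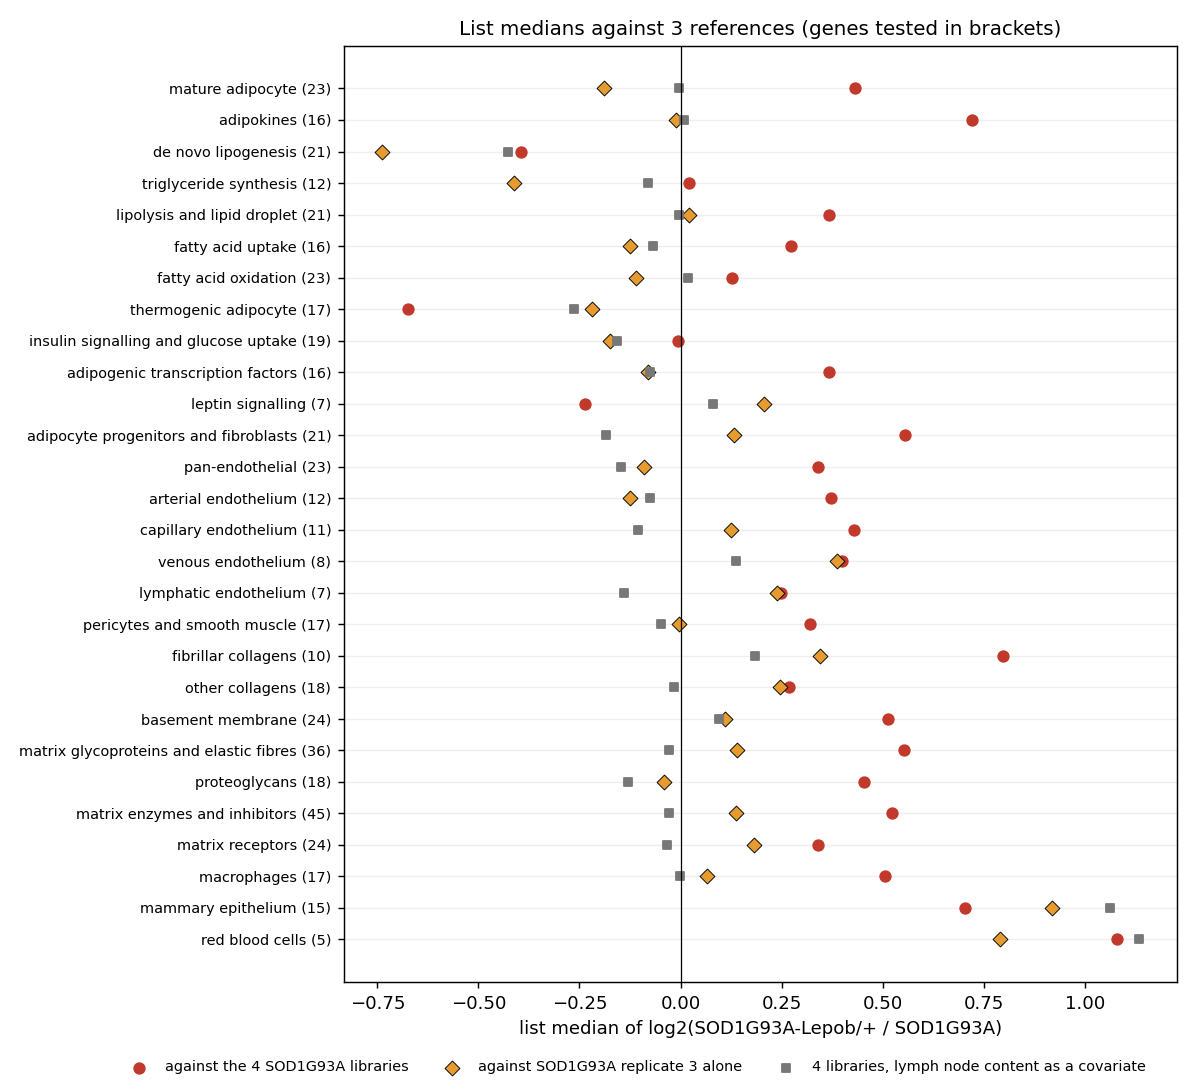
Median log2 difference of each list in the double mutants against the 4 SOD1G93A libraries (circle), against SOD1G93A replicate 3 alone (diamond, no test) and against the 4 with lymph node content as a covariate (square). Most circles lie right of the diamonds and squares; mature adipocyte genes go from 0.43 to -0.19 and 0.00, and fibrillar collagens from 0.80 to 0.35 and 0.18.

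Further lists gave smaller values. Cholesterol synthesis was lower at 14 of 20 members (median -0.26, and -0.24 against replicate 3). Glucocorticoid and fasting response genes, circadian clock genes and immediate early genes had medians of 0.15, -0.05 and -0.14, which were -0.14, -0.58 and 0.14 against replicate 3. The clock repressor Cry1 was separated, at 4.80 to 9.05 CPM against 9.70 to 14.7 CPM. Schwann cell genes were at 0.45 and -0.24 against replicate 3, and skeletal muscle genes at -0.83 and 1.95. Of the compared libraries, SOD1G93A replicates 2 and 4 and double mutant replicate 1 held muscle RNA, with marker sums of 245, 428 and 296 CPM. Lepob/+ replicate 4 and WT replicate 3, outside the comparison, held far more. Markers of T cells, of B cells and of lymph node stroma had medians of -5.87, -6.22 and -5.97, which became 0.29, 0.76 and 0.00 against SOD1G93A replicate 3.

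Whether the ob allele acted differently with and without SOD1G93A was tested as an interaction of the 2 alleles over the 16 libraries. No gene passed in edgeR (0 called, with 426 positive and 1148 negative at an unadjusted p under 0.05), and DESeq2 called 46. When the library labelled SOD1G93A-Lepob/+ replicate 3 was left out, Fbxo34 and Ptp4a1 were called in edgeR. In both of the other genotypes lymph node RNA also differed between libraries, being high in WT replicates 1 and 2 and in Lepob/+ replicate 3. Lepob/+ replicate 4 and WT replicate 3, with skeletal muscle RNA, also entered this test. The median interaction was 0.73 for fibrillar collagens and 0.61 for mature adipocyte genes, beside -0.09 over all genes.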

How the data were processed

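RNA-seq gene counts of mouse inguinal white adipose tissue were used as deposited. Per the labels and the methods of the study, the authors trimmed reads with fastp, aligned them with HISAT2 2.1.0 to mm10 and made the count table from unique reads with featureCounts 2.0.2. The strand setting and annotation release are not given in the sources used here, and the labels and the methods name different library kits. Of 54752 gene IDs, 54723 were matched to GENCODE symbols.

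Genes passing filterByExpr (minimum count 10, minimum total 15) numbered 19736. Counts of all 16 libraries were fitted with edgeR 4.0.16 (TMM scaling, robust quasi-likelihood test, Benjamini-Hochberg adjustment, threshold 0.05) in R 4.3.3, and the step was tested on simulated data. CPM values use the TMM factors. DESeq2 1.42.0, voom with quality weights (limma 3.58.1), other scalings and filters, a lymph node covariate (mean log2 CPM of 7 lymph node stroma genes), a replicate block and leaving out each library were alternatives. Values against SOD1G93A replicate 3 alone are differences with no test.

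The members and the 38 lists were chosen with earlier results of these data known. Named genes were the 20 higher and 10 lower genes with the smallest p among those separated in every library (gene models without a descriptive symbol and, for lower genes, lymphoid lists left out), up to 3 genes of each adipocyte, stroma, endothelial and matrix list by p, and landmark genes, 113 in all, of which a part is printed. Genes named outside this rule were chosen after their values were seen. Members of other lists are named as examples of their list. Same-numbered libraries of the compared genotypes correlated at -0.05 to 0.10 in their deviations from the group means, so the numbers were not treated as pairs.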

Additional observations from a re-analysis of the deposited data

Results flagged for a closer look

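In 26 of 300 groups of 4 libraries, 1 library stood apart from the other 3 by more than Dixon's 95% critical value. Chance gives this in about 1 in 20 groups, and the lists and genes share libraries. No cause was tested.

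SOD1G93A replicate 3 stood apart in mean log2 CPM at -0.0758 for T cells, -0.00873 for B cells and -1.88 for lymph node stroma, where the other 3 were at 4.41 or above. It was also apart at 6.47 for insulin signalling, 4.82 for arterial endothelium (the others 4.04 to 4.14) and 4.82 for immediate early genes (the others 5.03 to 5.05). In CPM it was the highest of its genotype for Adipoq (3262), Plin1 (1833), Lep (993), Col18a1 (266), Gpat3 (164), Pdgfrb (154), Slc27a4 (59.8), Sfrp5 (36.0) and Bmx (1.83). SOD1G93A replicate 4 stood apart for Eln at 283 CPM.

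The library labelled SOD1G93A-Lepob/+ replicate 3 was apart at 6.63 for pan-endothelial genes and -2.48 for lymph node stroma (mean log2 CPM). In CPM it was the highest of its genotype for Lep (1843), Prelp (1217), Pecam1 (306), Sfrp5 (152) and Ucp1 (27.9), and the lowest for Fmod (3.56). Double mutant replicate 2 was low for cholesterol synthesis at 4.51, and replicate 1 high for skeletal muscle at 3.37 (mean log2 CPM).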

How the results depend on the processing

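The count of genes called, 0, became 2 in edgeR on the compared genotypes only, 595 in DESeq2 on all libraries, 1935 in DESeq2 on the 8 and 6254 in voom, and 0 to 3 when 1 library was left out. Genes higher at an unadjusted p under 0.05 (827) numbered 441 with scaling from genes that do not follow lymph node content, 1493 in edgeR on the 8, 3865 in voom, 1887 in DESeq2 on the 8 and 515 with the lymph node covariate. Leaving out 1 library gave 345 (without SOD1G93A replicate 2) to 1965 (without SOD1G93A replicate 3). Genes lower (2434) numbered 4887 in voom and 294 with the covariate, and 1108 to 3564 without those same libraries. Genes with every library higher (707) numbered 467 with the other scaling, and 816 to 3552 with 1 library left out. Genes with every library lower (710) numbered 789 to 4475 with 1 library left out. The interaction count of 0 became 46 in DESeq2 on all libraries, and 2 without the library labelled SOD1G93A-Lepob/+ replicate 3, the only one left out for it. With the replicate block, edgeR called 0 genes, with 706 higher and 1986 lower at an unadjusted p under 0.05, and the interaction count was 0. The cause of these shifts was not tested.

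With the covariate the direction reversed for Gpat3 (-0.11), Zfp423 (-0.0445), Lepr (0.0572), Lep (-0.22), Prox1 (0.51), Itga9 (-0.0535), Col6a2 (-0.0237), Adipoq (-0.15), Plin1 (-0.13), Ucp1 (1.75), Pecam1 (-0.0173), Cdh5 (-0.15) and Dcn (-0.0242). Agpat3 (-0.00223) and Pecam1 (-0.0871) reversed with the other scaling and Pecam1 in voom (-0.0699). With 1 library left out Pecam1 ranged from -0.19 to 0.12. No other named gene changed direction in a refit, but 18 of 113 had the opposite sign against SOD1G93A replicate 3 alone. In all, 176 results of named genes passed the adjusted threshold only in an alternative. List medians moved by more than the spread between libraries in 63 results and by less in 455, the former mostly with the covariate (28) or SOD1G93A replicate 3 alone (26).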
